A study of Mus musculus with 563 samples.

Results

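The cells described here are the old hematopoietic stem cells (HSCs) with the most and the fewest gene reads for their spike-in reads, called RNA-rich and RNA-poor cells. They were chosen by the ratio of all gene reads to the summed reads of the 92 listed spike-in RNAs, an external mix whose amount per cell the labels do not give. Cells were ranked within each sort group, count table and block of cells (a stratum), and the third with the highest ratios in each stratum was set against the third with the lowest. This gave 130 RNA-rich and 130 RNA-poor cells of 399 old cells that passed the cell filter, out of 563 cells in the series, of which 424 are old. The ratio and the read totals made the choice, so they are given as descriptions only.

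HSCs sit in the bone marrow and renew the blood lineages over life, and most of them rest outside the cell cycle. Resting stem cells are known for holding little RNA. A cell that leaves rest makes nucleotides, ribosomes and the replication machinery, copies its DNA in S phase, and then makes the proteins of chromosome separation in G2 and M phase.

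The study sorted single HSCs from bone marrow of young and old mice of the genotype Gfp-Lc3, which carry green fluorescent protein joined to LC3, which sits on autophagosomes, and sequenced each cell with a modified Smart-seq2 protocol. All groups carry the transgene and were isolated at steady state. The labels give no age in months, no promoter of the transgene and no animal, and do not say what LO, MID and HI, the names of the old sort groups, rank. The RNA-rich cells are 44 LO, 44 MID and 42 HI cells, as are the RNA-poor cells, the rest being middle cells, and the same split of young cells gave 44 against 44. Because no animal is named, each group is 1 sample: no test was made, and differences are given with their spread over 6 units, each a sort group in 1 of 2 count tables (2 units for young cells).

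Nuclear gene reads per spike-in read were on average 2.36 times as many in RNA-rich as in RNA-poor cells (log2 difference 1.24 ± 0.37, SD over 12 strata, range 0.82 to 2.01). By group it averaged 1.12 (LO), 1.02 (MID), 1.56 (HI) and 1.37 (young). The median ratio was 88.2 gene reads per spike-in read in RNA-rich, 46.1 in middle and 32.8 in RNA-poor cells. At the boundaries the cells were close: the lowest RNA-rich cell had 1.01 to 1.06 times the ratio of the highest middle cell, and the lowest middle cell 1.01 to 1.10 times that of the highest RNA-poor cell. The last 24 cells by title number of each group and table, which were ranked apart, had stratum medians of 106.7 to 176 against 32.9 to 59.5 in the earlier cells, with median spike-in reads of 1585 to 3843 against 6004 to 7592. HI cells had the highest median ratio of the 3 old groups in all 4 combinations of table and block.

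Median gene reads per cell were 349500.0 in RNA-rich, 287569 in middle and 214964 in RNA-poor cells. RNA-poor cells had a larger median share of unaligned reads (42.4% against 34.9%) and of mitochondrial reads among gene reads (2.4% against 1.9%), and the part of these in the differences below was not tested. For shares of cells, cells were drawn down at random to 100000 nuclear reads each (thinned); this left out 26 shallower old cells, 21 of them RNA-poor. Of 373 thinned old cells, Kit was read in 373, Hlf in 370 and Mecom in 365, while Ly6a (82.8%), Procr (76.1%), Slamf1 (74%), Fgd5 (68.1%) and Ctnnal1 (50.1%) were less widely read.

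RNA-rich old cells stood apart first of all by genes of cell division. Of 10676 genes past the level filter, 606 (5.68%) were higher in RNA-rich cells and 0.984% were lower by a size rule. The rule asks for at least a 1.5-fold mean difference on the log2(CPM + 1) scale (CPM, counts per 1000000 nuclear reads), 1 direction in all 6 units, at least 20 CPM and a read in 20% of the cells where it is higher, and no cell with over 20% of its reads. The 12 highest genes were Mki67, Cdca8, Ccnb2, Ccna2, Birc5, Neil3, Ankle1, Cdk1, Hmmr, Aurkb, Ube2c and Pimreg, most of them parts of the mitotic machinery. Without composition factors (plain CPM) the counts were 442 higher and 206 lower, or 68.2% of calls higher against 85.2%; with median-ratio factors it was 72.6%. The median over all genes was 0.12 with the factors and 0.02 without, so the values below are read against 0.12. The 20% of cells in the rule was counted at full depth, which was greater in RNA-rich cells. With thinned cells 488 genes were higher and 147 lower, among them 387 of the 606 and 60 of the lower genes.

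Mki67, the proliferation marker that coats mitotic chromosomes (chromosome 7, 135689784 to 135716361 in GRCm38), was at 212 to 2258 CPM (median 336) in the RNA-rich sums and at 1.21 to 22 CPM (median 3.77) in the RNA-poor sums. The RNA-rich and RNA-poor sums did not overlap, and the highest RNA-rich sums were those of HI cells. The mean log2 difference was 6.24 ± 1.75 (SD over 6 units), from 39660 and 302 reads. The level was uneven among RNA-rich cells, with a median of 2.36 CPM and a highest cell of 4854 CPM. After thinning it was read in 41.4% of RNA-rich and 21.1% of RNA-poor cells.

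Ccnb2, a B-type cyclin of mitosis, was at 34.6 to 539 CPM (median 95.1) in the RNA-rich sums and at 0 to 7.47 CPM (median 0.381) in the RNA-poor sums, a difference of 5.95 ± 2.12. Cdk1, the mitotic kinase, was at 42.8 to 496 CPM (median 95.2) in the RNA-rich sums and at 0 to 21.4 CPM (median 1.1) in the RNA-poor sums, a difference of 5.42 ± 0.61. Top2a, which untangles replicated chromosomes, was at 183 to 1176 CPM (median 215) in the RNA-rich sums and at 0.823 to 79.5 CPM (median 14.7) in the RNA-poor sums, a difference of 4.71 ± 1.48. For none of these genes did the RNA-rich and RNA-poor sums overlap. In 1 unit, LO of the first table, much of this RNA came from 1 cell with the title number 58; without it, as tried once the values were known, the differences were 5.66 for Mki67, 4.80 for Ccnb2, 5.14 for Cdk1 and 4.37 for Top2a.

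**Figure D1:**
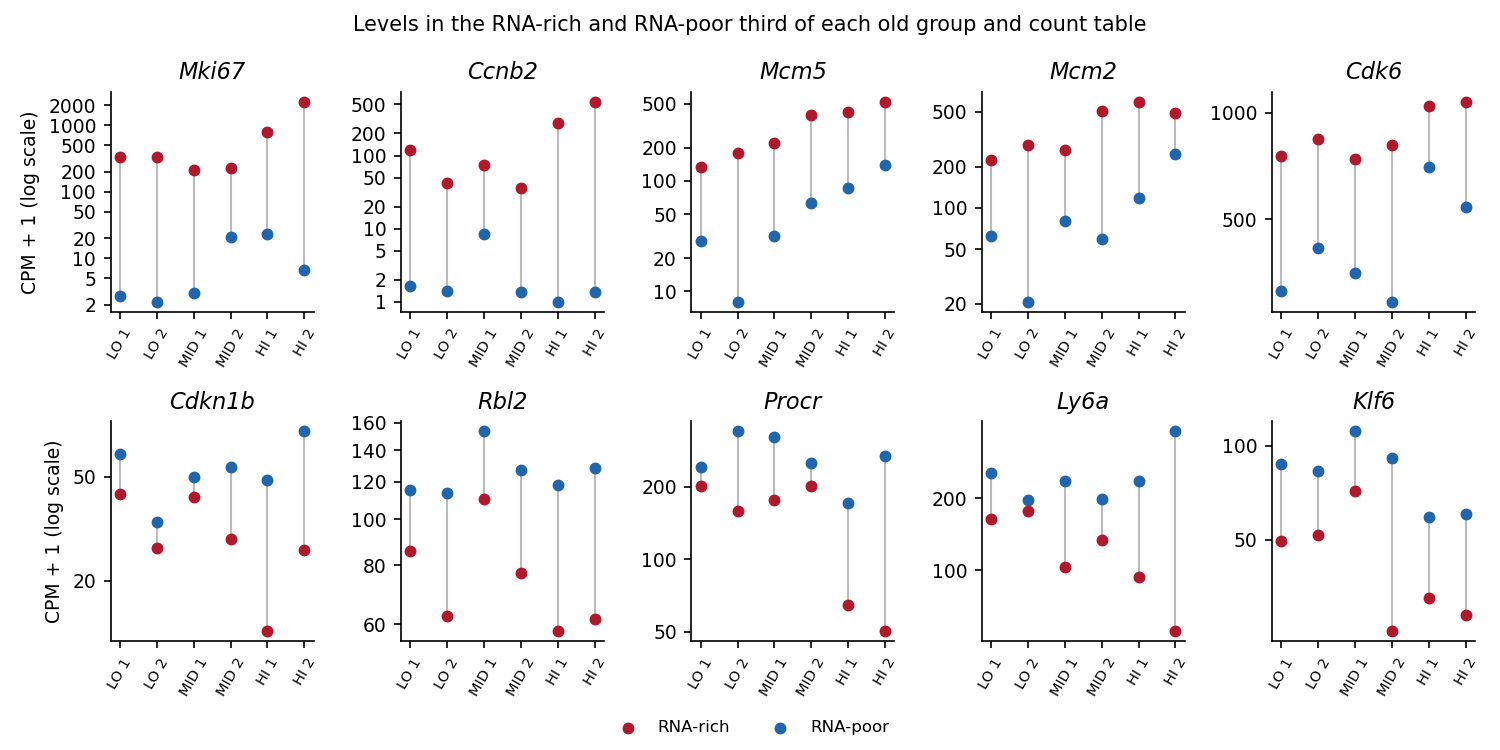
Levels of 10 genes in CPM plus 1 (log axes) in the RNA-rich (red) and RNA-poor (blue) cells of each old sort group and count table, a grey line joining the sums of a unit; each point is 1 sum of cells and has no error bar. Mki67, Ccnb2, Mcm5, Mcm2 and Cdk6 were higher, and Cdkn1b, Rbl2, Procr, Ly6a and Klf6 lower, in RNA-rich cells in all 6 units.

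Sequence upstream of 4 higher genes is shown because genes of these lists moved together and hold short motifs known from cell cycle control. RefSeq promoters (GRCm38.p6) were searched on both strands, in the 250 bases before the start, for CCAAT, bound by NF-Y, TTTGAA, a cell cycle homology element, and TTGGCGC and TTCCCGC, forms of the E2F motif. Capitals mark these motifs on either strand in the 150 bases before the start of Mki67 (chr7:135716380-135716529), Ccnb2 (chr9:70421555-70421704), Cdk1 (chr10:69352913-69353062) and Mcm6 (chr1:128359706-128359855), all 4 on the minus strand and written 5′ to 3′ toward the gene.

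Mki67: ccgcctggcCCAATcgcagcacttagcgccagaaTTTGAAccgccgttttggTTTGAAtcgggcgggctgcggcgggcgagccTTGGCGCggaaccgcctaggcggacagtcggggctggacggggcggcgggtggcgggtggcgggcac
Ccnb2: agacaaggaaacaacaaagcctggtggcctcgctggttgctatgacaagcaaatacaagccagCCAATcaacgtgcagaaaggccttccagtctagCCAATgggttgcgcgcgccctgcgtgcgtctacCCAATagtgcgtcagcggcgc
Cdk1: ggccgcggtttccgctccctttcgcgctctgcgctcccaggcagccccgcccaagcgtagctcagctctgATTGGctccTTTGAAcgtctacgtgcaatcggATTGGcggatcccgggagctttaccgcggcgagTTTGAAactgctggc
Mcm6: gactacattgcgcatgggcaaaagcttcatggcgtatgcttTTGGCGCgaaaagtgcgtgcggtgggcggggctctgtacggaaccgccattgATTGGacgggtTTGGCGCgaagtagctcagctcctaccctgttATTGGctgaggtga

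CCAAT stood in the searched bases of 19 of 24 matched G2 and M phase genes (79.2%) and 15 of 25 S phase genes (60%), beside 36.2% of 8054 matched tested genes and 34.2% of all 27025 promoters. TTTGAA stood in 7 of 24 G2 and M phase genes (29.2%), 10.2% of tested genes and 16.3% of all promoters. An E2F form stood in 11 of 25 S phase genes (44%), 3 of 24 G2 and M phase genes (12.5%), 10.7% of tested genes and 5.74% of all promoters. Of the higher genes, 492 of 606 had a promoter entry, and 45.7% of these held CCAAT and 19.1% an E2F form; of the lower genes 91 had one, with 45.1% and 6.59%. These are matches of letters in a window, and no binding was measured.

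As a list, the genes of G2 and M phase lay at a median log2 difference of 4.71 over 29 measured genes, and 27 were higher and none lower, beside a median of 0.12 over all genes. The unit medians ran from 4.04 to 6.0. Ccnb1 (3.15 ± 2.22) and Kif23 (2.12 ± 3.51) missed the rule, the first because 1 cell held 22.7% of its RNA-rich reads and the second because it was higher in 4 of 6 units. S phase genes had a median of 2.29 (1.41 to 2.88 over the units), and 25 of 31 were higher and none lower. Among them were Rrm2 (4.43 ± 2.69), a subunit of ribonucleotide reductase, Uhrf1 (3.92 ± 1.20), which helps keep DNA methylation after replication, and Pcna (1.23 ± 0.49), the sliding clamp of DNA polymerases.

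Cells with at least 8 of 30 G2 and M phase genes read after thinning, called G2/M cells below, were counted. They made up 36.7% of RNA-rich cells (47 cells, 95% Clopper-Pearson interval 28.4% to 45.7%), 7.35% of middle cells (10 cells, 3.58% to 13.1%) and 2.75% of RNA-poor cells (3 cells, 0.571% to 7.83%); these intervals cover counting error only. Without thinning the shares were 40% of RNA-rich and 3.85% of RNA-poor cells. With at least 4 genes they were 50% and 20.2%, and with at least 12 genes 32.8% and 0.917%. Most RNA-rich cells were thus not G2/M cells, while few RNA-poor cells were.

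By sort group the counts were as follows. In HI cells, 33 of 41 RNA-rich cells were G2/M cells (80.5%, 65.1% to 91.2%), against 9 of 45 middle and 2 of 37 RNA-poor cells. In MID cells it was 8 of 43 RNA-rich cells (18.6%, 8.39% to 33.4%), 1 of 44 middle and 1 of 40 RNA-poor cells. In LO cells it was 6 of 44 RNA-rich cells (13.6%, 5.17% to 27.4%), 0 of 47 middle cells, which allows a share of up to 6.38%, and 0 of 32 RNA-poor cells, which allows up to 9.38%. Here and below, the limit for a count of 0 is 3 divided by the number of cells, not a Clopper-Pearson limit, which would be wider. Each sort group is 1 sample, so the difference between groups was not tested.

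**Figure D2:**
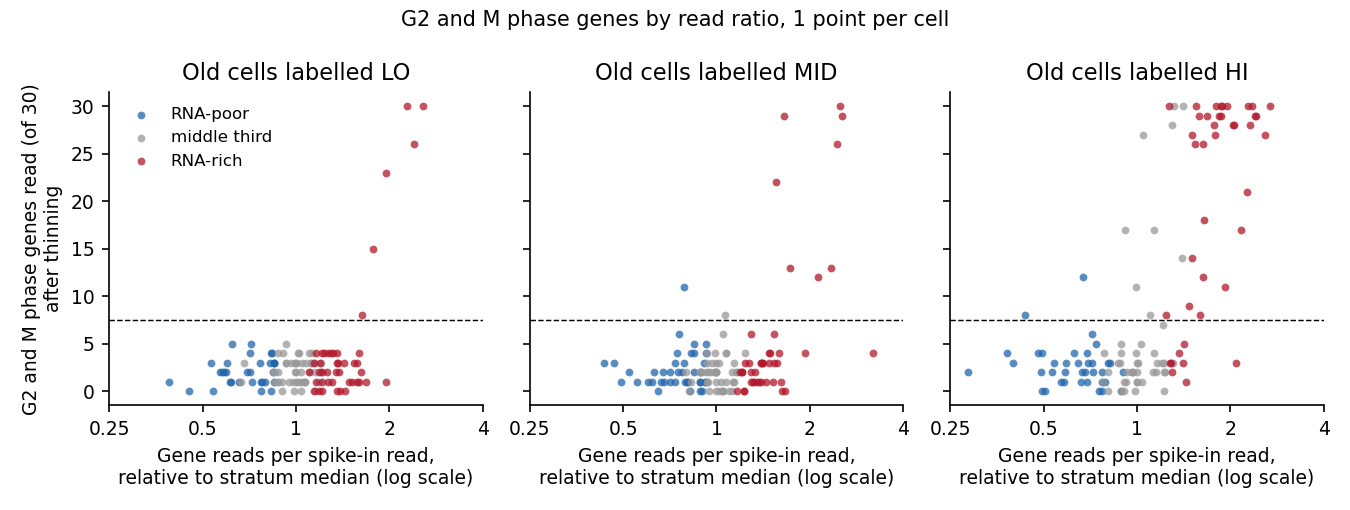
Each point is 1 thinned old cell: the horizontal axis gives its gene reads per spike-in read relative to its stratum's median (log axis), the vertical axis how many of 30 G2 and M phase genes were read, colours RNA-rich, middle and RNA-poor cells, and the dashed line the threshold of 8 genes. Cells past the line have a median relative ratio of 1.75 and cells with 0 to 3 genes one of 0.981.

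Seen from the G2/M cells, 47 of 60 (78.3%) were RNA-rich. Their median ratio was 1.75 times their stratum's median (range 0.437 to 2.69), while the 257 cells with 0 to 3 of the genes lay at 0.981 and 64 of them were RNA-rich. The 56 cells with 4 to 7 of the genes lay at 1.0, near the cells with fewer. By sort group, G2/M cells lay at 2.12 in LO (6 cells, all RNA-rich), 1.93 in MID (10 cells) and 1.64 in HI (44 cells), the last against a stratum median that itself holds many of them. RNA-rich cells also read more genes at equal depth, with medians of 7282, 6730.0 and 6225 genes in RNA-rich, middle and RNA-poor cells; unthinned, the outer medians were 8927 and 7028.

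**Figure D3:**
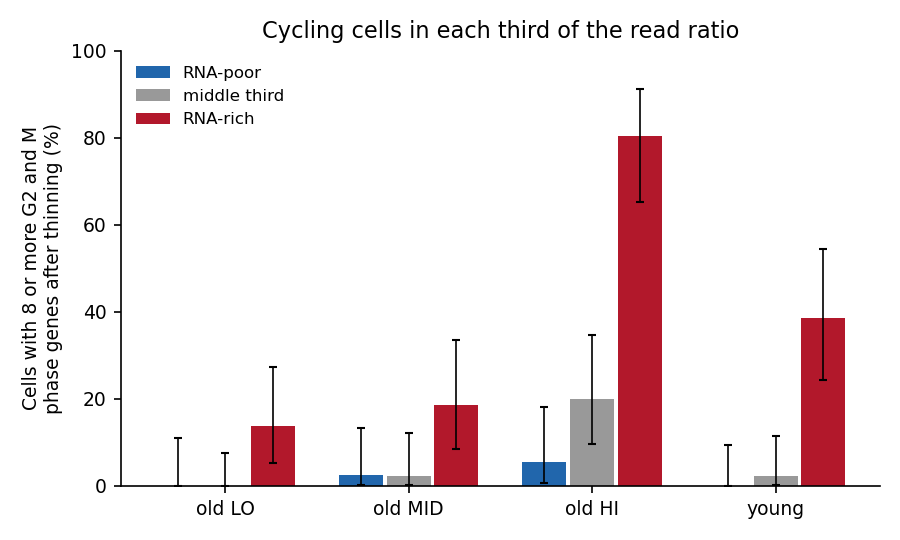
Bars give the percent of thinned cells with at least 8 of 30 G2 and M phase genes read among the RNA-poor, middle and RNA-rich cells of each group, with 95% Clopper-Pearson intervals for counting error. The RNA-rich bar is the tallest in each group and reaches 80.5% in HI and 38.6% in young cells.

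To describe the other RNA-rich cells, the 61 old cells with at least 8 of the genes (1 of them too shallow to thin) were left out and the rest ranked anew, which put 216 cells in the outer groups. Of 10582 genes, 308 (2.91%) were higher and 85 (0.803%) lower in RNA-rich cells. Of these, 150 were among the 606 higher genes (24.8% of those, 48.7% of the 308) and 33 among the lower genes (31.4% of those, 38.8% of the 85). All 12 highest genes above missed the rule here, Mki67 at 0.90 ± 2.31. The G2 and M phase list, which holds Mki67, Ccnb2, Birc5, Cdk1, Hmmr and Ube2c, chose the cells that were left out. Nothing is therefore read from the loss of these genes or from the list's 3 remaining genes.

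S phase genes in these cells had a median of 1.26 (0.53 to 2.45 over the units), and 8 of 28 were higher and none lower. They were Mcm2, Mcm3, Mcm4, Mcm5, Mcm6 and Mcm7, the 6 subunits of the replicative helicase, Gins2, of the complex that activates it, and Dut, which keeps uracil out of DNA. Mcm7 and Gins2 overlap other genes in the annotation (Ap4m1 and Cops6, and Gse1), so their counts are uncertain. Pcna (0.24 ± 0.35) and Tyms, thymidylate synthase (0.36 ± 0.91), missed the rule.

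Mcm5 (chromosome 8, 75109569 to 75128439) was at 132.1 to 517 CPM (median 307) in the RNA-rich sums and at 7.03 to 137.2 CPM (median 46.1) in the RNA-poor sums with all old cells. The ranges overlap, but each unit had more in its RNA-rich cells. Its difference was 2.72 ± 0.92, and 1.67 ± 0.75 without G2/M cells, from 190.2 and 55.2 CPM. It was read in 61.7% of thinned RNA-rich cells and 23.9% of RNA-poor cells. Mcm2 was at 224 to 589.5 CPM (median 388) in the RNA-rich sums and at 19.7 to 247 CPM (median 70.2) in the RNA-poor sums, a difference of 2.29 ± 1.01, and 1.86 ± 0.59 without G2/M cells. When cells with 4 or more of the genes were left out too, which was tried once the values were known, 219 genes were higher and 92 lower, and the difference was 1.6 for Mcm2, 1.53 for Mcm5 and 0.99 for Mcm7.

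Among regulators of the step from rest into the cycle, 3 of 17 measured genes were higher and 2 lower (5.68% and 0.984% of all genes). Cdk6, a kinase that sets how soon an HSC leaves rest (chromosome 5, 3341485 to 3531008), was at 738 to 1072 CPM (median 826) in the RNA-rich sums and at 291 to 700.1 CPM (median 381) in the RNA-poor sums. These sums did not overlap. Its difference was 1.07 ± 0.30, and 0.99 ± 0.50 without G2/M cells, so it was about as large. E2f1, which turns on replication genes (2.60 ± 1.78), and Ccne2, a cyclin of the step into S phase (2.66 ± 0.93), were higher too, and both missed the rule without G2/M cells (1.23 ± 2.12 and 1.30 ± 1.47).

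The 2 lower genes were inhibitors. Rbl2, the pocket protein p130 that holds cell cycle genes off in resting cells (chromosome 8, 91070057 to 91123844), was at 57.1 to 109.3 CPM (median 68.7) in the RNA-rich sums and at 112.6 to 153 CPM (median 121.5) in the RNA-poor sums, without overlap. Its difference was -0.76 ± 0.27, and -0.78 ± 0.79 without G2/M cells; it overlaps Aktip in the annotation. Cdkn1b, the inhibitor p27, was at 11.8 to 41.8 CPM (median 26.7) in the RNA-rich sums and at 32.4 to 73.6 CPM (median 51.1) in the RNA-poor sums, with -0.91 ± 0.68 and -0.62 ± 0.77. Both met the rule in both comparisons. Cdkn1c, the inhibitor p57 (-0.12 ± 0.72), and the cyclins Ccnd1 (0.54 ± 1.77) and Ccnd2 (-0.43 ± 0.76) had no common direction over the units.

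Among 24 genes of nucleotide and one-carbon synthesis, 9 were higher and none lower (5.68% and 0.984% of all genes), with a median of 0.65. Without G2/M cells 7 of 23 were higher (2.91% of all genes), with a median of 0.45. Shmt1, Cad, Phgdh, Mthfd1, Paics and Gart were in both sets. Shmt1, which takes one-carbon units from serine, was at 41.5 to 81 CPM (median 66.2) in the RNA-rich sums and at 3.5 to 35.6 CPM (median 25.9) in the RNA-poor sums, without overlap and with a difference of 1.92 ± 1.09. Cad, which starts pyrimidine synthesis, was at a difference of 1.24 ± 0.92 and Paics, of purine synthesis, at 1.07 ± 0.30. Psat1, of serine synthesis, was at 1.6 ± 0.94 with all cells and missed the rule without G2/M cells (0.95 ± 1.06).

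The machinery of protein synthesis gave smaller differences. Ribosome biogenesis genes had a median of 0.37, with 6 of 36 higher and none lower, and 0.38 with 2 of 36 higher without G2/M cells. Ncl, the nucleolar protein nucleolin, was at 726 to 1053 CPM (median 891) in the RNA-rich sums and at 541 to 637 CPM (median 565) in the RNA-poor sums, without overlap and with a difference of 0.62 ± 0.23. Dkc1, which modifies ribosomal RNA, was at 0.81 ± 0.24 and met the rule in both comparisons. Of the aminoacyl-tRNA synthetases, which load transfer RNAs, 4 of 20 were higher (median 0.57), and 1 of 20, Nars, without G2/M cells. Over all genes 5.68% were higher, and 2.91% without G2/M cells. The 2 of 36 and the 1 of 20 are too few to be set apart from the latter share.

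Of 25 chaperones, 7 were higher and none lower (5.68% and 0.984% of all genes). Without G2/M cells 4 were higher (2.91% of all genes): Hspa9, Hspa4, Hsp90aa1 and Hsp90ab1. Hsp90ab1, an abundant cytosolic chaperone, was at 2650.4 to 3654 CPM (median 3119.9) in the RNA-rich sums and at 1609.7 to 2137 CPM (median 2039.6) in the RNA-poor sums. The sums did not overlap, and the difference was 0.66 ± 0.17, and 0.68 ± 0.18 without G2/M cells. Hspa9, the Hsp70 chaperone of mitochondria, was at 0.84 ± 0.46.

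The 70 listed ribosomal protein genes took a somewhat smaller share of reads in RNA-rich (15881 plain CPM) than in RNA-poor cells (17609 plain CPM). Their median was -0.07 (unit medians -0.27 to 0.07), below the 0.12 of all genes, and 40 of 59 measured genes lay below 0. By the rule 1 of 59 was higher: Rpl15, at 0.91 ± 0.84. Many of them have near-identical copies in the genome, so their counts are uncertain. Per spike-in read their median was 1.06; on that scale, which holds the ratio that chose the cells, 89 of 10676 genes were below 0. No gene met the rule among 50 nuclear genes of oxidative phosphorylation (median 0.06), 40 mitochondrial ribosomal proteins (0.14), 34 core autophagy genes (-0.07) and 29 lysosome genes (0.02). Myc, which drives ribosome production, had overlapping sums and a difference of -0.14 ± 0.58. Actb, a cytoskeletal actin, was at 0.29 ± 0.12 and Gapdh, of glycolysis, at 0.22 ± 1.39; neither met the rule. Xist, at 0.07 ± 2.75, did not pass the level filter.

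Of 22 genes of nuclear import and pores, 7 were higher (median 0.56), and 4 without G2/M cells (median 0.11), beside 5.68% and 2.91% of all genes. Rcc1, which charges the transport protein Ran, was at 2.51 ± 2.05 and Nup85, of the nuclear pore, at 1.52 ± 0.52; both met the rule in both comparisons. Ran itself was at 0.88 ± 0.36, and 0.36 ± 0.29 without G2/M cells, where it missed the rule. Sqle, of cholesterol synthesis, was at 1.34 ± 0.41 and 1.11 ± 0.35 and met it in both.

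Of 22 actin and tubulin genes, 5 were higher and none lower (median 0.19), and of 24 genes of Polycomb and DNA methylation 4 were higher and 1 lower (median 0.35). Beside these, 5.68% of all genes were higher and 0.984% lower. Tubb5, a beta tubulin, was at 1007 to 3469 CPM (median 1428) in the RNA-rich sums and at 531 to 944 CPM (median 647) in the RNA-poor sums. The sums did not overlap, and the difference of 1.31 ± 0.56 was 0.21 ± 0.35 without G2/M cells. Tuba1b, an alpha tubulin, was at 1.65 ± 0.55 and 0.30 ± 0.40 in the same order. Ezh2, the methyltransferase of Polycomb, was at 2.16 ± 0.93 and 0.87 ± 0.99, and Dnmt1, which copies DNA methylation, at 1.38 ± 0.94 and 0.24 ± 1.11. All 4 missed the rule without G2/M cells. The lower one was Cbx7, another Polycomb subunit, at -0.58 ± 0.52.

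**Figure D4:**
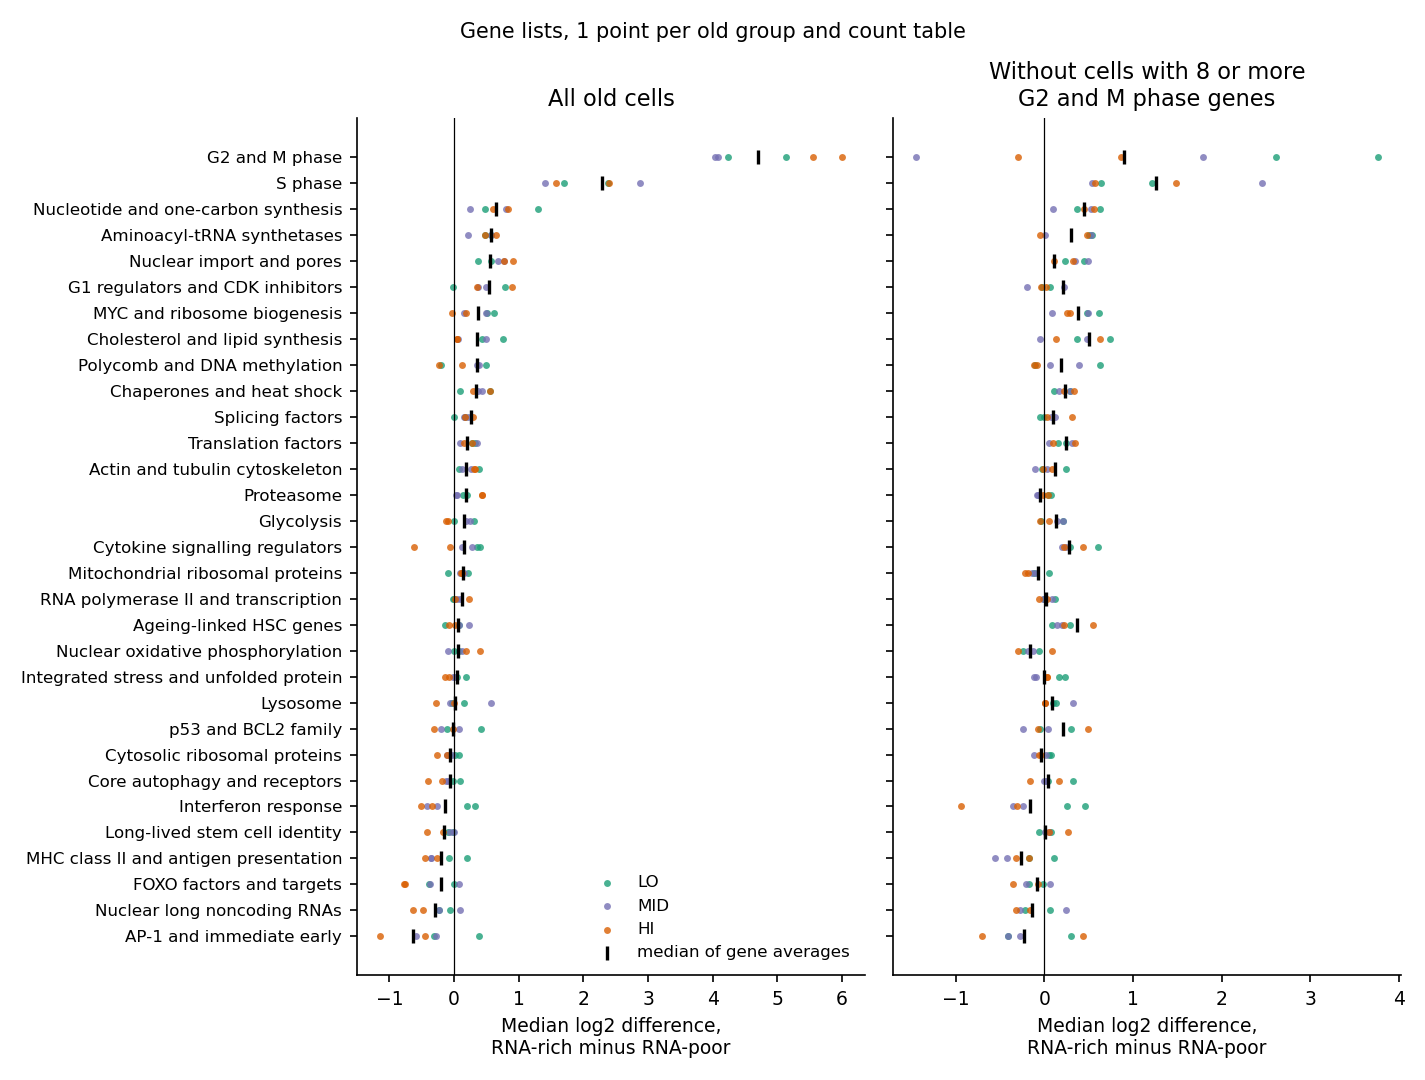
Median log2 difference, RNA-rich minus RNA-poor, of each pathway list in the 6 units (points coloured by sort group) and over the genes' averages (black bars), for all old cells (left) and without G2/M cells (right). G2 and M phase (4.71) and S phase (2.29) have the highest bars on the left; on the right the G2 and M phase row holds 3 genes and the S phase bar lies at 1.26.

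The 12 lowest of the lower genes were Gbp9, Tmem37, Zfp3, Pkp3, Cd53, Gas6, Entpd1, Kdm7a, Cd82, Gstm1, Sat1 and Nudt6, and many of these had a wide spread over the units. Gbp9, an interferon-induced GTPase whose gene overlaps Gbp4 and Gbp8, was at 0.894 to 8.33 CPM (median 2.96) in the RNA-rich sums and at 5.55 to 44.6 CPM (median 23.9) in the RNA-poor sums, a difference of -2.37 ± 1.12. Cd53, a tetraspanin of blood cells, was at -1.59 ± 1.17, and Cd82, a tetraspanin linked to HSC rest, at -1.16 ± 0.67. Zfp3, Gas6, Cd82 and Nudt6 also met the rule without G2/M cells. Of all lower genes, 12 (11.4%) were below 0 per spike-in read, beside 89 of all 10676 genes (0.834%); that scale holds the ratio that chose the cells, so nothing is read from it.

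Among 26 genes of stem cell identity (median -0.15), none was higher and 2 were lower (0.984% of all genes), both surface proteins used to sort HSCs. Procr, the protein C receptor EPCR (chromosome 2, 155751117 to 155755471), was at 49.3 to 201 CPM (median 166) in the RNA-rich sums and at 170.1 to 339 CPM (median 259) in the RNA-poor sums. The lowest sums were those of RNA-rich HI cells, and the mean difference was -0.69 in LO, -0.59 in MID and -1.91 in HI. Over all units it was -1.06 ± 0.80, and -0.39 ± 0.48 without G2/M cells, where it missed the rule. Ly6a, or Sca-1, was at 54.7 to 176 CPM (median 117.4) in the RNA-rich sums and at 196 to 380.1 CPM (median 234) in the RNA-poor sums, without overlap; its difference was -1.11 ± 0.92, and -0.70 ± 0.50 without G2/M cells, where it missed the rule too. Without these cells none of the 26 met the rule and the median was 0.01. The transcription factors Mecom (-0.43 ± 0.29) and Hlf (-0.44 ± 0.75) did not meet the rule in either comparison.

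Immediate early genes, which answer fast to signals and to cell handling, had a median of -0.63 over 19 genes. Of these, 3 were lower (0.984% of all genes) and none higher. The unit medians ran from -1.15 to 0.39, so not all units shared the direction. Klf6 was at 24.6 to 70.7 CPM (median 40.1) in the RNA-rich sums and at 58.2 to 110 CPM (median 84.2) in the RNA-poor sums, a difference of -0.98 ± 0.44, and -1.18 ± 0.90 without G2/M cells. It met the rule in both comparisons, while Ier2 (-0.88 ± 0.66) and Jund (-0.63 ± 0.42) met it with all cells only. Jun (-0.36 ± 0.66) and Fos (-0.49 ± 0.42) did not meet it.

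Other lower genes came singly or in pairs from their lists, beside 0.984% of all genes. Lower were 1 of 21 interferon response genes, 1 of 21 stress and unfolded protein genes and 1 of 16 MHC class II genes. Of the stress and unfolded protein genes 1 was higher too. Ifitm1, an interferon-induced membrane protein, was at -0.98 ± 0.57, Xbp1, a factor of the unfolded protein response, at -0.76 ± 0.31, and H2-Eb1, a chain of MHC class II, at -0.83 ± 0.73; all 3 missed the rule without G2/M cells. Aldoc and Ldhb, of glycolysis and lactate use, were at -0.98 ± 0.70 and -0.81 ± 0.72 and met it in both comparisons. The glycolysis list as a whole did not share this direction. Its 20 measured genes had a median of 0.16, with 11 above 0, and 1 was higher by the rule. Cd74, the invariant chain of MHC class II, was at -1.56 ± 1.51 but higher in 1 of 6 units, and Malat1, a nuclear noncoding RNA, was at -0.34 ± 0.30 and higher in 1 of 6 units; neither met the rule.

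Genes linked to HSC ageing had a median of 0.07 over 26 genes, with Vwf higher and Nupr1 and Gpr183 lower. Without G2/M cells the median was 0.36, Vwf, Selp and Osmr were higher and none was lower. Beside these, 5.68% of all genes were higher and 0.984% lower, and without G2/M cells 2.91% and 0.803%. The 1 higher gene of 26 is too few to be set apart from the first of these shares. Vwf, von Willebrand factor of platelet-biased HSCs, was at 358 to 635 CPM (median 399) in the RNA-rich sums and at 239.6 to 336 CPM (median 274) in the RNA-poor sums, without overlap. Its difference was 0.60 ± 0.28, and 0.75 ± 0.13 without G2/M cells. Selp, P-selectin, was at 0.53 ± 0.50 and 0.97 ± 0.77, and Nupr1, a stress-induced chromatin protein, at -0.82 ± 0.61 and -0.36 ± 0.32. Cavin2, a platelet membrane protein, was at 0.59 ± 0.47 and 0.82 ± 0.50 and met the rule in both comparisons. Socs3, an inhibitor of cytokine signals, met it in neither (0.21 ± 0.43).

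Markers of other blood cells were counted in the same thinned cells. At least 3 of 12 erythroid markers were read in 45.3% of RNA-rich, 35.3% of middle and 22.9% of RNA-poor cells. Car2 was read in 99.7% of old cells, and Tfrc (46.9% against 34.9%), Alas2 (39.8% against 17.4%) and Epor (22.7% against 12.8%) added to it. Of the defining hemoglobin genes, Hba-a1, Hba-a2 and Hbb-bs were under 1 CPM in RNA-rich, middle and RNA-poor cells, and Hbb-bt was at 5.48 CPM in RNA-rich and 18.6 CPM in RNA-poor cells. The 12 markers summed to 23.5 to 4689 CPM per RNA-rich cell and 57.2 to 5612 CPM per RNA-poor cell, and none was at 0 over all cells.

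At least 3 markers were read in 2.34% of RNA-rich and 4.59% of RNA-poor cells for neutrophils, 9.38% and 8.26% for monocytes, and 3.91% and 0.917% for T and NK cells. For B cells it was no RNA-rich or RNA-poor cell, which allows up to 2.34% and 2.75%. At least 3 dendritic cell markers were read in 66.4% and 67%, and at least 3 megakaryocyte markers in 100% and 99.1%. Without the cells with 3 or more markers of erythroid cells, neutrophils, monocytes, B cells, T and NK cells or mast cells and basophils (dendritic and megakaryocyte markers were not used) and with the rest ranked anew, 71 against 71, the median of G2 and M phase genes was 3.78, 370 genes were higher and 140 lower.

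The transgene entries had no common direction over the units. The eGFP entry differed by -0.33 ± 0.48 on the log2 scale, with -1.16 and -0.52 in LO, 0.14 and 0.13 in MID and -0.35 and -0.21 in HI cells. The rat Map1lc3b entry differed by -0.30 ± 0.56. The mouse gene Map1lc3b, which encodes LC3B, was at 232 to 319 CPM (median 280.4) in the RNA-rich sums and at 289 to 392 CPM (median 336) in the RNA-poor sums, a difference of -0.26 ± 0.23. In RNA-rich and RNA-poor cells the eGFP entry stood at 331 and 597 plain CPM in LO, 922 and 832 in MID, and 674 and 819 in HI.

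In young cells the same split gave 17 of 44 RNA-rich G2/M cells (38.6%, 24.4% to 54.5%), against 1 of 46 middle and 0 of 38 RNA-poor cells, which allows up to 7.89%. The medians were 4.12 for G2 and M phase and 1.94 for S phase genes; the difference between ages was not tested. Of 10538 genes, 1410 (13.4%) were higher and 442 (4.19%) lower, but with 2 units the rule is weaker, so these counts cannot be set against those of old cells. Of the 606 genes higher in old cells, 238 (39.3%, and 16.9% of the 1410) were higher in young cells too, and 25 of the lower genes (23.8%, and 5.66% of the 442) were lower. Xist, which silences an X chromosome in female cells, had 20 or more reads in 24 of 44 RNA-rich and 23 of 44 RNA-poor young cells, against 4 of 130 and 4 of 130 old cells. Y-linked genes together had 20 or more reads in 43.2% and 38.6% of the young cells and 90.8% and 85.4% of the old cells in the same order; the part of this in the values was not tested.

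Cdk6 (0.96), Mcm2 (1.97) and Mcm5 (4.19) were higher, and Rbl2 (-1.09), Procr (-0.78), Ly6a (-0.88) and Klf6 (-1.01) lower, in RNA-rich young cells by the rule. Cdkn1b (-0.13), Vwf (-1.25) and Nupr1 (-1.18) did not meet it there.

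For both cell cycle lists the middle old cells lay nearer to the RNA-poor than to the RNA-rich cells: against the RNA-poor cells their median was 0.80 for G2 and M phase and 0.76 for S phase genes, where the RNA-rich cells were at 4.71 and 2.29.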

How the data were processed

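Whole-number read counts per gene for single cells were deposited by the authors in 2 tables without normalization, per the file headers, with spike-in and transgene entries and summary lines for reads not given to a gene. The submitters' processing notes name the build mm10 and the tools DESeq2, featureCounts 2.0.0, Subread and STAR 2.7.3a, with no role or order; whether counting used strand is not given in the sources used here, so reads of overlapping genes cannot be told apart. Of all reads, 77.3% in the first and 74.5% in the second table were not given to a gene and stayed out of library sizes, and spike-ins took 0.401% and 0.465%.

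Cells with at least 50000 nuclear reads, 1000 genes and at most 20% mitochondrial reads were kept. Within each sort group, table and block (the last 24 cells by title number apart), cells were ranked by gene reads per spike-in read, and the third with the highest and the third with the lowest ratio were taken. Counts were summed per unit for RNA-rich and RNA-poor cells and scaled with TMM factors (edgeR 4.0.16 in R 4.3.3), and differences of log2(CPM + 1), with a pseudocount of 1, were averaged over 6 units. Genes needed a mean of 10 CPM and a read in 10% of cells. With 1 sample a group no p-value was computed; plates, animals and capture cannot be told apart from the split, and the block is known only from title numbers. The spread over units and exact binomial intervals at 95% describe these libraries. Scripts ran in Python 3.11.15 and were tested on simulated data.

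The members, the 41 gene lists and the measures were chosen with earlier results of these data known. Named are the 12 highest and 12 lowest genes by the size rule, up to 2 highest and 2 lowest genes of each list, and a set of genes always named (Map1lc3b, the transgene entries, Myc, Mki67, Ccnd1, Ccnd2, Cdk6, Cdkn1c, Malat1, Actb, Gapdh, Mecom, Hlf, Procr, Selp, Socs3 and Xist); further list members are examples. No doublet caller was run, as cells were sorted singly, and whether any well held more cells was not tested. Alternatives to scaling, pseudocount, filter, ranking, units and cell choice were tried.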

Additional observations from a re-analysis of the deposited data

Results flagged for a closer look

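The following list medians (log2, RNA-rich minus RNA-poor) had 1 sign in both tables of 1 group and the other sign in both tables of another. Signs are taken around 0, although the median over all genes was 0.12. Some positive medians lie below 0.12, such as both LO medians of ribosomal proteins (0.02 and 0.07). Opposite signs thus need not be opposite directions when set against all genes. Each value is a difference of the groups' mean medians, with the medians of the 2 tables of each group in brackets, and none of these differences was tested.

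For cytosolic ribosomal proteins it was -0.24 for HI minus LO (-0.12 and -0.27 against 0.02 and 0.07) and -0.12 for MID minus LO (-0.03 and -0.11 against 0.02 and 0.07). For glycolysis it was -0.27 for HI minus LO (-0.10 and -0.13 against 0.00 and 0.31) and -0.33 for HI minus MID (-0.10 and -0.13 against 0.25 and 0.18). For the integrated stress and unfolded protein response it was -0.23 for HI minus LO (-0.08 and -0.14 against 0.19 and 0.05). For interferon response genes it was -0.69 for HI minus LO (-0.52 and -0.35 against 0.20 and 0.32), -0.61 for MID minus LO (-0.27 and -0.43 against 0.20 and 0.32) and 0.80 for LO minus young (0.20 and 0.32 against -0.58 and -0.50). For cytokine signalling regulators it was -0.72 for HI minus LO (-0.62 and -0.06 against 0.35 and 0.41), -0.53 for HI minus MID (-0.62 and -0.06 against 0.27 and 0.12), 0.55 for LO minus young (0.35 and 0.41 against -0.06 and -0.27) and 0.36 for MID minus young (0.27 and 0.12 against -0.06 and -0.27).

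Megakaryocyte and platelet genes gave the widest gap, -1.33 for HI minus LO (-0.15 and -0.25 against 1.05 and 1.22), and also -0.51 for HI minus MID (-0.15 and -0.25 against 0.14 and 0.48). Without G2/M cells their medians were 0.15 and 0.19 in HI, 0.94 and 0.80 in LO and -0.21 and 0.69 in MID. HI and LO then also shared a sign for cytokine regulators (0.22 and 0.43 against 0.29 and 0.61). The same held for stress response genes (0.03 and 0.03 against 0.23 and 0.16). Glycolysis medians had mixed signs in both groups. Signs still differed for interferon response genes (-0.31 and -0.94 against 0.25 and 0.46) and ribosomal proteins (-0.04 and -0.07 against 0.05 and 0.07). Genes linked to HSC ageing gave 0.48 for MID minus young (0.23 and 0.08 against -0.41 and -0.24); in young cells the median of the genes' averages was 0.11, which differs in sign from the medians of both tables.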

How the results depend on the processing

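All 26 alternatives kept the median of S phase genes above 0. The median of G2 and M phase genes stayed above 0 too. Its sign cannot be read without G2/M cells or without cells with 4 or more of the genes, because the list itself chose the cells left out. Without G2/M cells the list held 3 genes, with unit medians from -1.45 to 3.77. The 606 higher genes became 325 with a stricter level filter, 298 when cells were ranked without the block, 74 with 12 strata as units, 308 without G2/M cells, 219 without cells with 4 or more of the genes (added once the values were known), 370 when cells with markers of other types were left out, and 91 by spike-in reads alone. With fewer units for the rule to hold in, they became 971 without LO, 965 without MID, 997 in the first and 1150 in the second count table. The lower genes became 206 in plain CPM, 182 with median-ratio factors, 65 with the stricter filter, 201 with mean CPM per cell, 165 with quartiles, 7 with 12 strata, 321, 343 and 172 without LO, MID and HI, and 393 and 463 in each table.

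The G2 and M phase median of 4.71 became 5.89 and 2.54 with pseudocounts of 0.1 and 10 CPM, 3.66 without the block, 3.81 with 12 strata, 3.78 when cells with markers of other types were left out, 0.90 and 0.46 without cells with at least 8 or 4 of its own genes, and 2.71 and 2.62 when ranked by spike-in or nuclear reads alone. In the same settings the S phase median of 2.29 became 1.58 when split at the median, 1.35 without the block, 1.26 and 0.99 without those cells, and 0.55 and 1.48 by spike-in or nuclear reads. The cause was not tested. Ranking by spike-in reads alone kept 68 of 130 RNA-rich cells and put 24 of the 130 among the RNA-poor cells. Ranking without the block kept 55. Medians of many other lists changed sign over the 26 alternatives. Among them were ribosome biogenesis (-0.25 to 0.49), chaperones (-0.11 to 0.42) and immediate early genes (-0.74 to 0.17). So did stem cell identity (-0.26 to 0.08), ageing-linked genes (-0.14 to 0.45) and Polycomb and DNA methylation (-0.06 to 0.51). Further ones were actin and tubulin (-0.04 to 0.28), cholesterol synthesis (-0.13 to 0.59), MHC class II (-0.33 to 0.07) and glycolysis (-0.13 to 0.25). Others stayed above 0 but came near it. These were regulators of the step into the cycle (0.0007 to 0.87) and aminoacyl-tRNA synthetases (0.001 to 0.63). Nucleotide and one-carbon synthesis (0.02 to 0.87) and nuclear import and pores (0.08 to 0.75) were others.

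Gas6 turned to 0.83 without the block. By spike-in reads alone, Pkp3 (0.26), Cdkn1b (0.0238), Cavin2 (-0.15), Dkc1 (-0.20), Gpr183 (0.31), Hsp90ab1 (-0.012), Ncl (-0.28) and Phgdh (-0.0114) changed sign. Without cells with 4 or more of the genes, Entpd1 (0.34) and Tyms (-0.30) did. Without LO cell 58, 553 genes were higher. Each difference is taken within a unit, which pairs the RNA-rich and RNA-poor sums, but no test was made. The replicate numbers only name cells. Depth limits the shares of cells most among RNA-poor cells, where 21 cells were too shallow to thin.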
